A study of Homo sapiens with 12 samples.

Results

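The enzymes of serine synthesis and folate one-carbon metabolism were followed across knockdowns of 3 citrate-handling genes in MiaPaCa-2 cells, a long-established line of human pancreatic cancer. The 9 genes were PHGDH, PSAT1, PSPH, SHMT1, SHMT2, MTHFD1, MTHFD1L, MTHFD2 and ALDH1L2, out of 70116 gene identifiers in the deposited count table, and all 9 passed the filter on low counts. They were taken by symbol, and the group was chosen with the measured levels in the siACO1 cells in view, where PHGDH, PSAT1 and ALDH1L2 are low. The siACO1 values of the 9 genes against any other group are therefore given as a description with no test.

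Cells of the 4 groups differed only in the small interfering RNA (siRNA) they received, per the labels: siControl, siSLC25A1, siACLY or siACO1, with 3 replicate libraries in each. SLC25A1 is the mitochondrial citrate carrier, ACLY is ATP citrate lyase, the source of acetyl-CoA in the cytosol, and ACO1 is the cytosolic aconitase. How many siRNAs were used for each gene, their sequences, the time after transfection and the nutrient state at harvest are not given in the sources used here. An effect of an siRNA on transcripts other than its target therefore cannot be told apart from loss of its target. The labels do not say whether replicates were separate cultures, so p-values measure the spread between these libraries, which may be technical.

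PHGDH, PSAT1 and PSPH turn a glycolytic intermediate into serine in successive steps. SHMT1 in the cytosol and SHMT2 in mitochondria split serine into glycine and a one-carbon unit carried on folate. In mitochondria MTHFD2 oxidises that unit and MTHFD1L releases it as formate, or ALDH1L2 oxidises it to carbon dioxide with production of NADPH. In the cytosol MTHFD1 takes formate back into folate for purine and thymidylate synthesis. Several of these genes, PHGDH, PSAT1, SHMT2 and MTHFD2 among them, are known targets of ATF4, the transcription factor of the amino acid and integrated stress responses.

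The 9 protein-coding genes lie apart from one another on GRCh38, as annotated by GENCODE. On the plus strand are PHGDH at chr1:119648411-119744226, PSAT1 at chr9:78297143-78330093, SHMT2 at chr12:57229327-57234935, MTHFD1 at chr14:64388031-64463457, MTHFD1L at chr6:150865549-151101887 and MTHFD2 at chr2:74198562-74217565. On the minus strand are PSPH at chr7:56011051-56051604, SHMT1 at chr17:18327860-18363563 and ALDH1L2 at chr12:105019784-105084577.

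Library totals ran from 24159424 to 43792811 counts. Levels are in CPM, the count of a gene relative to its library total after trimmed mean of M values (TMM) scaling. The siRNA targets were low in the cells labelled for them: SLC25A1 at 11.7 ± 1.18 CPM against 134 ± 0.691 in siControl (SD, n = 3), ACLY at 36.1 ± 0.504 against 499 ± 7.55, and ACO1 at 1.68 ± 0.331 against 45.0 ± 1.57. The keratins KRT8, KRT18 and KRT19 were present, whereas the other 3 of 6 epithelial markers, KRT7, EPCAM and CDH1, stayed below 1 CPM in every library. The 6 epithelial markers summed to between 2067 and 2181 CPM in siACO1, 3125 and 3453 in siSLC25A1, 3824 and 3922 in siACLY, and 3607 and 3745 in siControl. The mesenchymal genes VIM, ZEB1 and CDH2, of which CDH2 stayed below 1 CPM, summed to between 4372 and 4909 CPM in siACLY, 3918 and 3989 in siSLC25A1, 3535 and 3900.1 in siACO1, and 3568 and 3716 in siControl. Against siControl ZEB1 rose by 0.65 in siSLC25A1 and 0.60 in siACLY on the log2 scale, KRT19 rose by 0.45 and 0.67, VIM rose by 0.36 in siACLY, and KRT8 and KRT18 fell by 0.18 and 0.20 in siSLC25A1 (edgeR, adjusted p at most 0.001792). The 3 fibroblast genes summed to between 1546 and 1592 CPM in siACO1 and between 875 and 895 CPM in siControl, nearly all of it COL1A2, with COL1A1 and DCN at or near 0. Leukocyte and endothelial markers summed to at most 0.207 CPM and the acinar genes PRSS1, CPA1 and AMY2A were at 0. The part of these marker differences in the results on the 9 enzymes was not tested. The siACO1 replicate 3 library stood apart from its group, with a chi-square per degree of freedom over genes of 11.3 and 12.1 against the other siACO1 libraries, compared with 2.27 between those libraries and 2.701 to 5.503 within the other groups.

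Starting regions were read from RefSeq on GRCh38.p14 for the 6 of 9 enzymes that matched its promoter table, as windows of 250 bases before to 50 after the start. Both motifs were searched on both strands and do not overlap: TGATGNAA, the core of the element that ATF4 binds with its partners, which occurred in 3.62% of all 35116 windows of that length, and CACGTG, the E-box, which occurred in 7.26%. Those shares count windows and not genes. MTHFD1L had 4 windows, of which overlapping ones held the same sites, and the other enzymes matched had 1 each. Of the 6 enzymes, MTHFD1L held TGATGNAA, and MTHFD1 and MTHFD1L held CACGTG. Both genes are shown because their transcripts were higher in siSLC25A1 than in siControl and in siACLY, as described further on, with the motif in capitals and both on the plus strand: MTHFD1L at chr6:150866346-150866375 and MTHFD1 at chr14:64388326-64388355.
MTHFD1L: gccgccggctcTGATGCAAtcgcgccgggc
MTHFD1: ccagtccctaagCACGTGggttgggttgtc
For comparison, PSAT1 at chr9:78296875-78297124 and MTHFD2 at chr2:74198365-74198554, on the plus strand, are shown as bases upstream of the start that hold neither motif. PSAT1 is one of the genes named in the choice of the group, and MTHFD2 is the enzyme called higher in both siSLC25A1 and siACLY against siControl.
PSAT1: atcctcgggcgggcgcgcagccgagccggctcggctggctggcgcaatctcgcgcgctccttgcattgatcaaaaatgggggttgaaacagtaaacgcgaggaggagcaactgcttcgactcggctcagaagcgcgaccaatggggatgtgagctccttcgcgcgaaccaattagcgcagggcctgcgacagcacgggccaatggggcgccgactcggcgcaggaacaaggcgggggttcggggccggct
MTHFD2: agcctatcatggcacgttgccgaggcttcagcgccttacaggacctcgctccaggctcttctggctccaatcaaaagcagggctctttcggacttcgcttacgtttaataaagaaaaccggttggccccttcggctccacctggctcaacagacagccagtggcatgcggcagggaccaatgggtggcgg
A match to a motif is a description of letters and not of binding, and a window without one says nothing about the factor.

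Control cells expressed the enzymes at very unequal levels. Divided by the length of all annotated exons, the siControl level in CPM per kilobase was highest for PSAT1 (272 ± 10.4, SD, n = 3), followed by MTHFD2 (88.5 ± 1.30), PSPH (57.5 ± 1.93), SHMT2 (55.6 ± 1.26), PHGDH (29.4 ± 0.117), MTHFD1L (28.17 ± 1.084), MTHFD1 (22.3 ± 0.321), ALDH1L2 (1.16 ± 0.118) and SHMT1 (1.10 ± 0.145). The neighbours PSPH and SHMT2, PHGDH and MTHFD1L, and ALDH1L2 and SHMT1 lay within 2 SD of each other, taking the larger SD. The order depends on the length used: with the principal annotated transcript, chosen after the data were seen, PHGDH stood at 105 ± 0.415 and SHMT2 at 106 ± 2.40 CPM per kilobase, below PSAT1 alone. SHMT1 and ALDH1L2 were the scarce members under both lengths, with 129 to 409 and 136 to 738 counts per library, and carry the widest errors.

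**Figure D1:**
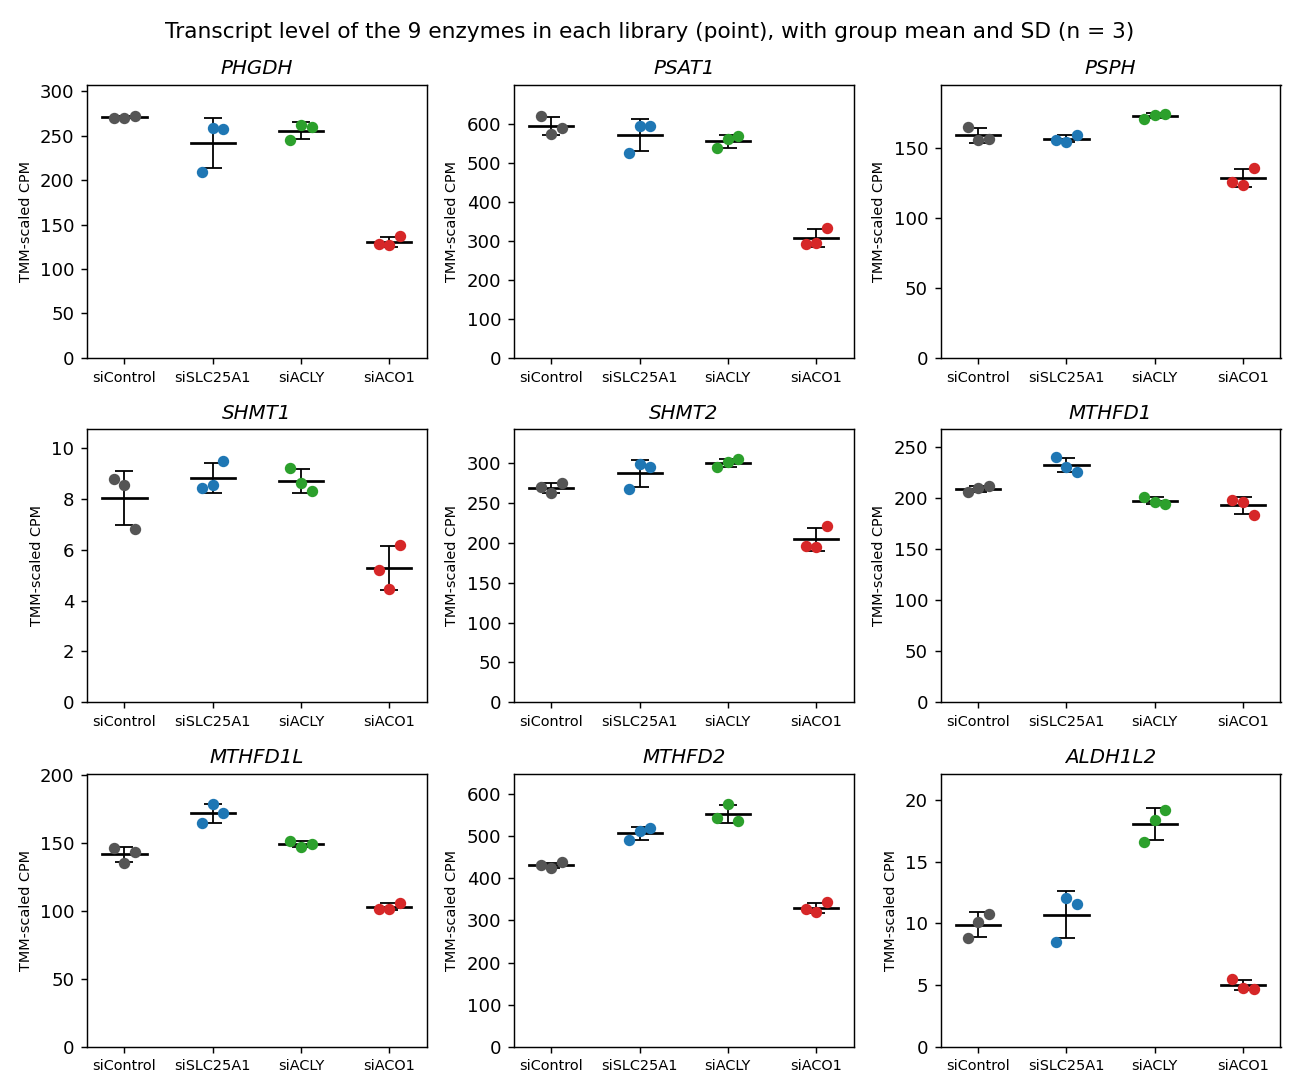
Level of each enzyme in TMM-scaled CPM (y axes start at 0 and differ between panels) by siRNA group; points are libraries, long bars means and short bars SD (n = 3). The siACO1 points lie below the siControl points in all 9 panels, and ALDH1L2 is highest in siACLY, between 16.6 and 19.2 CPM.

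PHGDH and PSAT1 are the first steps of serine synthesis. PHGDH, the dehydrogenase that commits carbon to the pathway, read 270.1, 269.8 and 272 CPM in the siControl libraries, 209, 259 and 257 in siSLC25A1, 245, 262 and 259.7 in siACLY, and 128, 127 and 137 in siACO1. PSAT1, the aminotransferase that follows, read 619, 574 and 591 CPM in siControl, 524, 596 and 596 in siSLC25A1, 538, 560.0 and 568 in siACLY, and 292, 296 and 333 in siACO1. In both genes the siACO1 libraries lay far below those of every other group, and siSLC25A1 replicate 1 was the lowest library outside siACO1. PSPH, the phosphatase that releases serine, read 165, 155 and 156 CPM in siControl, 156, 154 and 159 in siSLC25A1, 171, 173 and 174 in siACLY, and 125, 123 and 136 in siACO1. Its siACO1 libraries were again below all others, by a smaller margin.

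The hydroxymethyltransferases differed in abundance. SHMT2, the mitochondrial enzyme, read 269.9, 262 and 274 CPM in siControl, 267, 298 and 294 in siSLC25A1, 295, 300.5 and 305 in siACLY, and 196, 195 and 221 in siACO1. Its siACLY libraries all exceeded its siControl libraries, while siSLC25A1 overlapped them. SHMT1, its cytosolic counterpart, read 8.76, 8.52 and 6.83 CPM in siControl, 8.44, 8.53 and 9.49 in siSLC25A1, 9.19, 8.61 and 8.29 in siACLY, and 5.19, 4.45 and 6.20 in siACO1. For SHMT1 only siACO1 lay outside the siControl range in every library.

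Among the mitochondrial folate enzymes, MTHFD2, the dehydrogenase and cyclohydrolase, read 430.4, 425 and 438 CPM in siControl, 490.2, 512 and 520.2 in siSLC25A1, 544, 576 and 536 in siACLY, and 326, 320.4 and 344 in siACO1. The 4 groups of MTHFD2 did not overlap, with siACLY at the top. Its count is uncertain, since 33.2% of its exon bases overlap other genes and the counting rules are not given. MTHFD1L, which releases formate, read 146, 135 and 143 CPM in siControl, 164, 178 and 172 in siSLC25A1, 151, 147 and 149 in siACLY, and 102, 101 and 106 in siACO1. Here siSLC25A1 was the highest group and siACO1 the lowest. ALDH1L2, the NADPH-producing formyl-folate dehydrogenase, read 8.79, 10.1 and 10.8 CPM in siControl, 8.51, 12.0 and 11.6 in siSLC25A1, 16.6, 18.3 and 19.2 in siACLY, and 5.47, 4.78 and 4.72 in siACO1. Every siACLY library exceeded every other library for ALDH1L2, and every siACO1 library was below them. MTHFD1, the cytosolic three-function enzyme, read 206, 209.9 and 212 CPM in siControl, 240.4, 231 and 226 in siSLC25A1, 202, 196 and 195 in siACLY, and 199, 196 and 184 in siACO1. Its siACO1 and siACLY libraries overlapped, and siSLC25A1 was above all others.

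The fitted log2 difference of siACO1 from siControl ranged over the 9 enzymes from -1.05 to -0.12, with a median of -0.46, against a median of 0.01 over all 16197 genes tested. PHGDH stood at -1.05, PSAT1 at -0.96 and ALDH1L2 at -0.99, which are 48.3%, 51.6% and 50.4% of the siControl level. SHMT1 (65.4%), MTHFD1L (72.7%), SHMT2 (75.9%), MTHFD2 (76.6%) and PSPH (80.7%) came next, and MTHFD1 kept 92.3%. All 3 siACO1 libraries were below all 3 siControl libraries for 9 of 9 enzymes, beside 23.4% of all genes tested with that pattern and 22.9% with the opposite one. These values chose the group, so nothing is read from that count. In bulk RNA of this kind, fewer cells expressing a gene and less of its RNA per cell cannot be told apart. With library totals in place of TMM the count was 8, since MTHFD1 then overlapped.

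Without siACO1 replicate 3, the same differences were -1.09 for PHGDH, -1.02 for PSAT1 and -0.95 for ALDH1L2. SHMT1 moved to -0.76, SHMT2 to -0.46, PSPH to -0.36, MTHFD1L to -0.48, MTHFD2 to -0.42 and MTHFD1 to -0.08 on the log2 scale. Against siACLY the siACO1 level of ALDH1L2 differed by -1.85 and against siSLC25A1 by -1.099 on the log2 scale. The corresponding values were -0.97 and -0.89 for PHGDH and -0.86 and -0.90 for PSAT1.

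**Figure D2:**
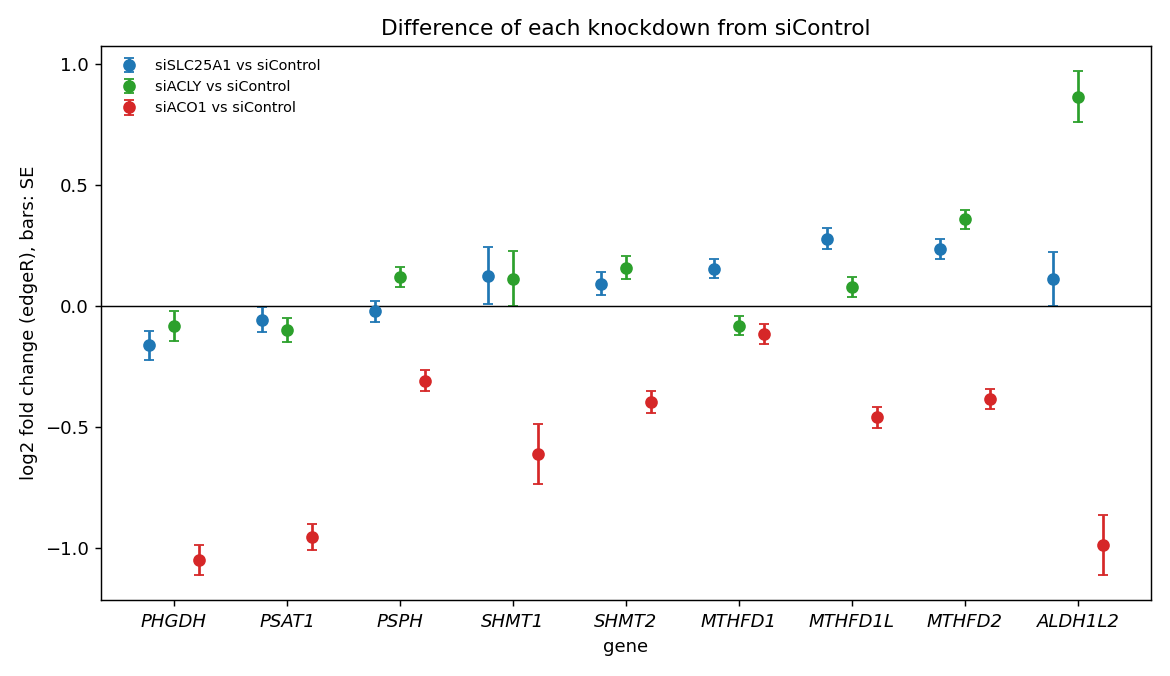
Fitted log2 fold change of each enzyme from siControl in the 3 knockdowns, with SE (edgeR; all use the same 3 siControl libraries). The siACO1 values, which chose the genes, are all below 0; ALDH1L2 is the furthest above 0 in siACLY at 0.86, and MTHFD1L the furthest in siSLC25A1 at 0.28.

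The comparisons of siSLC25A1 and siACLY with siControl did not choose the genes, but they use the same siControl libraries as the comparison that did. Tests are edgeR's two-sided quasi-likelihood tests, adjusted by Benjamini-Hochberg over all genes tested, and a gene is called at an adjusted p under 0.05. In siSLC25A1, 3 of 9 enzymes were called higher and none lower, beside 10.3% of all genes called higher and 9.27% called lower. All 3 belong to the folate steps that make and use formate. MTHFD1L rose by 0.28 on the log2 scale (SE 0.04, adjusted p = 1.487e-05), MTHFD2 by 0.24 (SE 0.04, adjusted p = 7.527e-05) and MTHFD1 by 0.15 (SE 0.04, adjusted p = 0.006449), with 3 of 3 libraries above all siControl libraries each. The share of all genes separated in this way was not computed for siSLC25A1. At an unadjusted p under 0.05 1 enzyme was lower, and DESeq2 also called 1 lower.

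The enzyme called lower by DESeq2 was PHGDH. In edgeR its log2 difference in siSLC25A1 was -0.16 (95% interval -0.30 to -0.02, adjusted p = 0.06732), although its 3 siSLC25A1 libraries were below the 3 siControl libraries. Without siSLC25A1 replicate 1 the value shrank to -0.07 and was not called. Without replicate 2 it was -0.22 with an adjusted p of 0.02046, and without replicate 3 it was -0.21 with an adjusted p of 0.02737. With no filter on low counts PHGDH was also called, at -0.18 (adjusted p = 0.003423). Replicate 1 was the lowest siSLC25A1 library for every member other than PSPH and MTHFD1. The other members were not called in siSLC25A1, with log2 intervals of -0.18 to 0.06 for PSAT1, -0.12 to 0.07 for PSPH, -0.02 to 0.20 for SHMT2, -0.14 to 0.39 for SHMT1 and -0.15 to 0.37 for ALDH1L2. Without siSLC25A1 replicate 1, SHMT2 was called higher at 0.14 (adjusted p = 0.03838).

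In siACLY, 4 of 9 enzymes were called higher and none lower, beside 18.4% of all genes called higher and 18.3% called lower. ALDH1L2 rose by 0.86 on the log2 scale (SE 0.11, adjusted p = 1.74e-07), to 182% of the siControl level. MTHFD2 rose by 0.36 (SE 0.04, adjusted p = 4.399e-08), SHMT2 by 0.16 (SE 0.05, adjusted p = 0.008257) and PSPH by 0.12 (SE 0.04, adjusted p = 0.02533). For these 4 genes all 3 siACLY libraries lay above all 3 siControl libraries. The same held for MTHFD1L, which was not called. For PHGDH, PSAT1 and MTHFD1, also not called, all 3 siACLY libraries lay below all 3 siControl libraries. The share of all genes separated in this way was not computed for siACLY, so nothing is read from the separation. At an unadjusted p under 0.05 and with DESeq2, 0 enzymes were lower. PHGDH (-0.08, interval -0.22 to 0.06), PSAT1 (-0.10, interval -0.22 to 0.02), MTHFD1 (-0.08, interval -0.17 to 0.01), MTHFD1L (0.08, interval -0.02 to 0.18) and SHMT1 (0.11, interval -0.15 to 0.38) were not called.

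The siACLY call count depends on the libraries and on which groups are in the fit. Without siControl replicate 2, 2 enzymes were called, ALDH1L2 and MTHFD2, while SHMT2 stood at 0.14 (adjusted p = 0.05424) and PSPH at 0.10 (adjusted p = 0.1183). PSPH also lost its call without siControl replicate 3 or without any 1 of the 3 siACLY libraries, at values from 0.10 to 0.12, and with no filter on low counts, at 0.11. With library totals in place of TMM, MTHFD1L was called higher as well, at 0.12 (adjusted p = 0.02047). In a fit of the siACLY and siControl libraries alone, 7 enzymes were called, 4 higher and 3 lower, the lower being PSAT1 at -0.10, PHGDH at -0.09 and MTHFD1 at -0.08. The share of all genes called in that fit was not computed. More of the neighbouring genes were also called in it, 18 against 11, so nothing is read from the 7 about the enzymes.

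The comparison of siACLY with siSLC25A1 shares no library with the one that chose the genes. It asks whether the enzymes differ between knockdown of the citrate carrier and knockdown of citrate lyase. The spread was still estimated from the libraries of every group, and the genes were chosen with earlier results of these data known. In this comparison 3 enzymes were higher and 2 lower in siACLY, beside 16.3% of all genes called higher and 17.5% called lower. ALDH1L2 was higher by 0.75 on the log2 scale (95% interval 0.51 to 1.00, adjusted p = 2.641e-06), PSPH by 0.14 (0.05 to 0.24, adjusted p = 0.00906) and MTHFD2 by 0.12 (0.03 to 0.21, adjusted p = 0.02002). MTHFD1 fell by 0.24 (SE 0.04, adjusted p = 3.481e-05) and MTHFD1L fell by 0.20 (SE 0.04, adjusted p = 0.0004578) relative to siSLC25A1. In each of these 5 genes the 3 siACLY and the 3 siSLC25A1 libraries did not overlap. The share of all genes with that pattern was not computed for this comparison, so nothing is read from it. The other 4 were not called, with intervals of -0.06 to 0.22 for PHGDH, -0.16 to 0.08 for PSAT1, -0.28 to 0.26 for SHMT1 and -0.04 to 0.17 for SHMT2. The MTHFD2 call was lost without siACLY replicate 2 (0.08, adjusted p = 0.1795), siSLC25A1 replicate 1 (0.10, adjusted p = 0.09364) or siSLC25A1 replicate 2 (0.12, adjusted p = 0.05088).

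**Figure D3:**
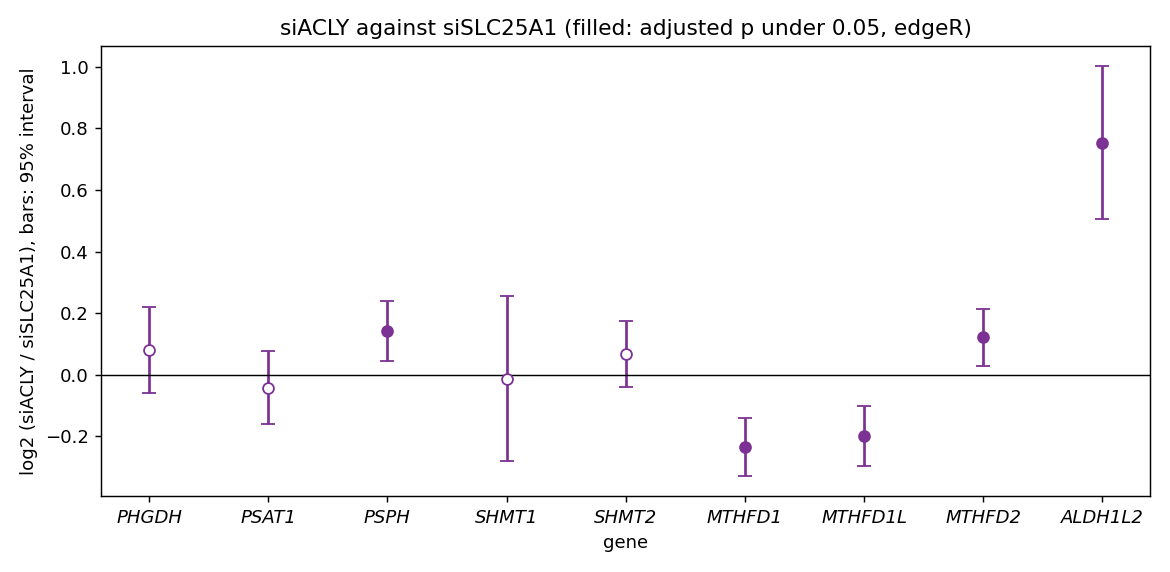
Log2 difference of each enzyme between siACLY and siSLC25A1 with its 95% interval (edgeR); filled points have an adjusted p under 0.05. ALDH1L2 stands apart at 0.75, and MTHFD1 and MTHFD1L lie below 0.

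Across the 12 libraries the levels of PHGDH and PSAT1 had a Pearson r of 0.99, the highest of any pair of members, followed by SHMT2 and MTHFD2 at 0.96. MTHFD1 and ALDH1L2 were the least alike, at 0.18. These coefficients describe log levels over 4 groups, of which siACO1 chose the genes, and the libraries share their scaling. Among 9967 genes averaging 5 CPM or more, those most like PHGDH were NFKB2 (0.99), PSAT1 (0.99), YARS1 (0.99) and HDDC2 (0.99). YARS1 is the cytosolic tyrosyl-tRNA synthetase, and stood at 470.3 ± 10.7 CPM in siControl and 318 ± 8.70 in siACO1. Those most like ALDH1L2 were ANK2 (0.99), RSPH3 (0.98), SNX8 (0.98) and ST8SIA6 (0.98). For ANK2, which encodes an ankyrin, the means were 34.9 ± 0.839 CPM in siControl, 38.1 ± 6.95 in siSLC25A1, 49.0 ± 3.50 in siACLY and 21.97 ± 0.912 in siACO1. Without siACO1 replicate 3, 3 of the 4 genes stayed among the top 4 for each. YARS1 moved to rank 6 for PHGDH, and ST8SIA6 to rank 6 for ALDH1L2.

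The neighbouring pathways were described from lists of other genes. Of the other folate enzymes, 13 of 13 tested, 2 were higher and 5 lower in siACO1, with a median log2 change of -0.14, beside 17.8% and 19.3% of all genes. MTHFD2L, a mitochondrial relative of MTHFD2, read 24.95, 26.8 and 19.9 CPM in siControl and 34.3, 37.7 and 34.9 in siACO1, a rise of 0.57 on the log2 scale (SE 0.08, adjusted p = 6.787e-07). MTHFD2L thus lay above its siControl range in every siACO1 library, as did 22.9% of all genes tested. GART, of purine synthesis, fell by 0.35 (adjusted p = 2.34e-08) in siACO1. In siSLC25A1 1 of 13 was higher, TYMS, the thymidylate synthase, by 0.25 (adjusted p = 0.03038), a count made uncertain by an overlap of 46.6% of its exon bases. That call was lost without any 1 of the siControl libraries or without siSLC25A1 replicate 1 or 3, at 0.16 to 0.27. In siACLY 1 of 13 was higher, and none was called lower in either comparison. DESeq2 called 1 higher and 0 lower in each. At an unadjusted p under 0.05 the list held 3 higher and 2 lower in siSLC25A1 and 5 higher and 1 lower in siACLY. The share of all genes at that unadjusted threshold was not computed, and the shares given are for adjusted calls.

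Counts in the lists that follow stand beside 10.3% of all genes called higher and 9.27% lower in siSLC25A1, 18.4% and 18.3% in siACLY, and 17.8% and 19.3% in siACO1. Of 9 glycine genes tested, 1 rose and 1 fell in siSLC25A1, 3 rose in siACLY, and 2 rose and 2 fell in siACO1. GLDC, the decarboxylase of glycine cleavage, rose in all 3 knockdowns, by 0.44 in siSLC25A1 (adjusted p = 0.01829), 0.84 in siACLY (adjusted p = 4.68e-06) and 0.48 in siACO1 (adjusted p = 0.00474). The knockdowns share their controls, and the siACO1 value was 0.30 without siACO1 replicate 3 (adjusted p = 0.07499). The siSLC25A1 call was lost without siControl replicate 1 or 2 or siSLC25A1 replicate 1 or 2, at 0.38 to 0.42. Of 8 methionine genes tested, 3 rose and 2 fell in siSLC25A1, 2 rose in siACLY, and 3 rose and 2 fell in siACO1. CTH, which makes cysteine from cystathionine, read 51.8, 44.2 and 47.4 CPM in siControl, 59.0, 69.1 and 73.7 in siSLC25A1, 72.9, 82.1 and 85.0 in siACLY, and 43.8, 39.9 and 41.5 in siACO1. It rose by 0.49 in siSLC25A1 (adjusted p = 0.0001371) and by 0.74 in siACLY (adjusted p = 3.767e-07). AHCY, which hydrolyses S-adenosylhomocysteine, fell by 0.61 in siACO1 (adjusted p = 1.804e-13) and by 0.33 in siSLC25A1 (adjusted p = 1.193e-07).

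Carriers of serine, neutral amino acids and folate were tested for 12 of 13 genes. In siSLC25A1 3 rose, in siACLY 2 rose and 3 fell, and in siACO1 3 rose and 3 fell, with medians of 0.11, -0.03 and -0.00 on the log2 scale. The siACLY and siACO1 counts stand beside 18.4% of all genes higher and 18.3% lower, and 17.8% and 19.3%, and nothing is read from them about the carriers. SLC1A4, a carrier of alanine, serine and cysteine, read 46.0, 42.1 and 43.7 CPM in siControl, 57.1, 72.7 and 67.7 in siSLC25A1, 69.3, 70.1 and 74.4 in siACLY, and 38.2, 37.7 and 41.5 in siACO1. It rose by 0.58 in siSLC25A1 (adjusted p = 4.983e-07) and by 0.70 in siACLY (adjusted p = 8.157e-09), in 3 of 3 libraries each. SLC38A2, a sodium-coupled neutral amino acid carrier, rose in all 3 knockdowns, which share their controls. The rise was 0.30 in siACO1 (edgeR, adjusted p = 1.726e-07), 0.19 in siACLY (adjusted p = 0.0001368) and 0.11 in siSLC25A1 (adjusted p = 0.03061). Its call in siSLC25A1 was lost without any 1 of the siControl libraries, without siSLC25A1 replicate 1 or 3, and with no filter on low counts.

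The regulator ATF4 read 357, 327 and 349 CPM in siControl, 427, 460.3 and 439 in siSLC25A1, 372, 395 and 401 in siACLY, and 245, 237 and 270.3 in siACO1. It rose by 0.36 in siSLC25A1 (adjusted p = 1.349e-06) and by 0.18 in siACLY (adjusted p = 0.003503), and fell by 0.46 in siACO1 (adjusted p = 7.765e-09), with groups that do not overlap. Without siACO1 replicate 3 the last value was -0.52. ATF4 counts are uncertain, since 29.7% of the 31-base stretches in its transcripts are found in other genes too. NFE2L2, the transcription factor of the oxidative stress response, read 81.4, 78.9 and 81.1 CPM in siControl and 53.8, 51.5 and 49.3 in siACO1, a fall of 0.64 (adjusted p = 2.352e-11), with 20.9% of its exon bases overlapping other genes. NFE2L2 also fell in siACLY, by 0.18 (edgeR, adjusted p = 0.003834), and was not called in siSLC25A1 (0.04, adjusted p = 0.6342). MYC was not called in any of the 3 knockdowns, with log2 changes of 0.00, -0.01 and -0.04 and adjusted p of 0.9719, 0.9357 and 0.4998. Of 9 regulators tested, 2 rose in siSLC25A1, 2 rose and 2 fell in siACLY, and 4 fell in siACO1, beside 10.3% of all genes higher in siSLC25A1, 18.4% higher and 18.3% lower in siACLY and 19.3% lower in siACO1. One of the falls in siACLY, EIF2AK2, lost its call under library totals (-0.07, adjusted p = 0.2066), without the filter or with at least 10 counts in every library, and without any 1 of the siACLY libraries or siControl replicate 2. DESeq2 called 1 regulator higher and 2 lower in siACLY.

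Of the 15 other ATF4 targets 12 were tested. In siSLC25A1 8 were called higher, with a list median of 0.31 on the log2 scale, in siACLY 10 were higher and 2 lower, with a median of 0.53, and in siACO1 9 were lower, with a median of -0.43. The shares over all genes were 10.3% higher in siSLC25A1, 18.4% higher and 18.3% lower in siACLY, and 19.3% lower in siACO1. The opposite direction had no call in siSLC25A1 or siACO1 in edgeR, at an unadjusted p under 0.05 or in DESeq2. Among targets averaging 5 CPM or more in the higher group, the largest rises in siSLC25A1 were DDIT3 at 0.63, TRIB3 at 0.62 and ATF3 at 0.58. In siACLY they were TRIB3 at 0.89, ATF3 at 0.86 and DDIT3 at 0.83. In siACO1 the largest falls by the same rule were VLDLR by 0.95, ASNS, the asparagine synthetase, by 0.76 and SLC7A5, a large neutral amino acid carrier, by 0.71. SLC7A5 was also 1 of the 2 targets lower in siACLY, by 0.29 (edgeR, adjusted p = 2.532e-06). The counts of DDIT3 and ASNS are uncertain, with 39.6% and 44.6% of exon bases overlapping other genes. The list was chosen with earlier results of these data known, and integrated stress genes had already been seen to differ, so its direction is not independent support.

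**Figure D4:**
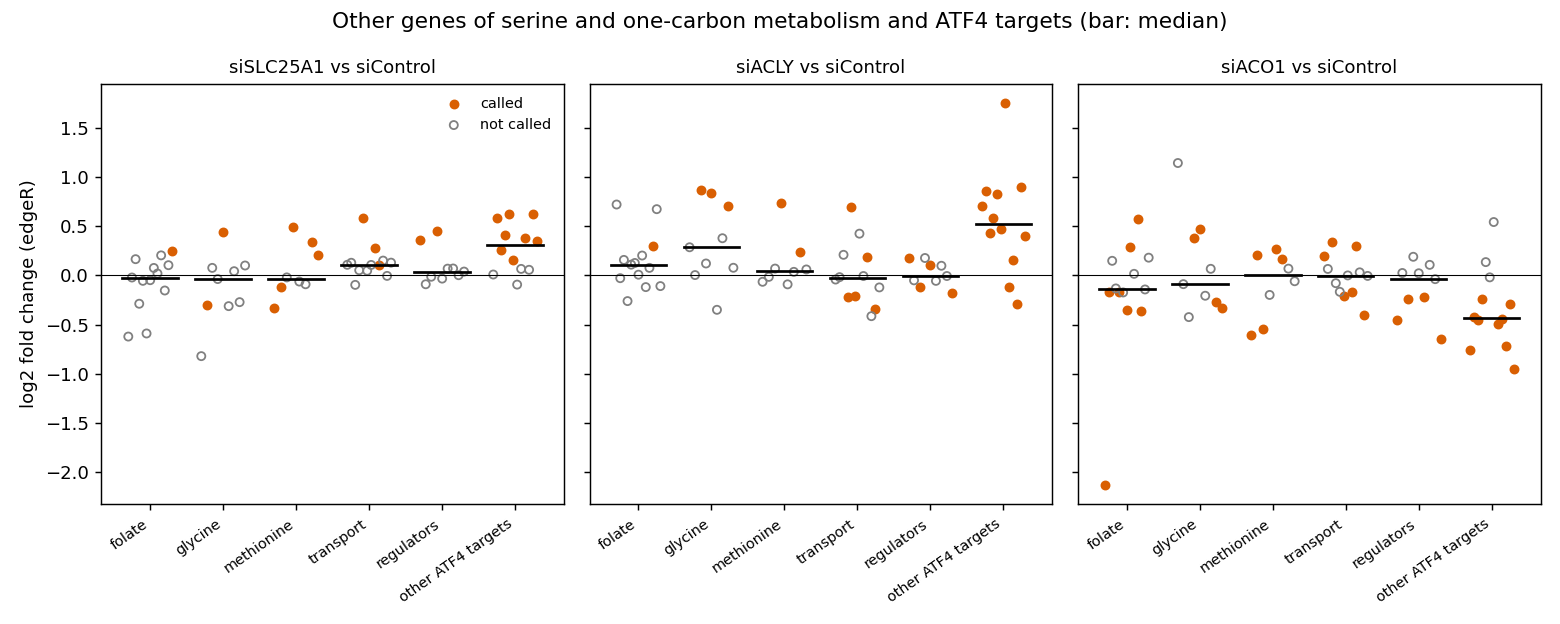
Log2 fold change of each tested gene of the 6 neighbouring lists in the 3 knockdowns (y axis), grouped by list (x axis); filled points have an adjusted p under 0.05 and bars are list medians. Other ATF4 targets have medians of 0.31, 0.53 and -0.43 in siSLC25A1, siACLY and siACO1.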

How the data were processed

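RNA with a poly(A) tail from 12 MiaPaCa-2 samples was sequenced. The authors deposited 1 table of raw counts per gene for all samples. The submitters' processing notes name CASAVA, FastQC, Trim Galore, STAR 2.7.0e and DESeq2 and the builds GRCh38 and GRCm39, without roles; the counting tool, annotation and use of strand are not given in the sources used here. Symbols were matched for 62700 of 70116 identifiers (89.4%), and coordinates and exon lengths are those of GENCODE on GRCh38.

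Counts were filtered with filterByExpr (16197 genes), scaled by TMM (factors 0.978 to 1.03) and fitted in edgeR 4.0.16 (R 4.3.3, limma 3.58.1) with a quasi-likelihood model over the 4 groups without a block (8 residual degrees of freedom). The common BCV, the biological coefficient of variation, was 4.89%. Replicate numbers did not pair samples: same-numbered libraries of different groups had deviations correlated at -0.03 to 0.07. Alternatives were DESeq2 1.42.0, other scalings, filters, a smaller fit, a replicate block and leaving out each library. Scripts were tested on simulated data.

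Members and gene lists were chosen with earlier results of these data known. Genes eligible to be named were, for each list and knockdown, the 3 called genes of largest change whose higher group averaged 5 CPM or more, with ATF4, NFE2L2 and MYC always named and a selection of them described. An eligible folate gene is not reported here. Counts are given as uncertain when 20% or more of exon bases overlapped another gene or 20% or more of 31-base stretches occurred elsewhere. EHMT2, FOLR1, GCSH, MTAP and PCK2 had 0 counts in every library and were not tested. Whether these zeros reflect absent RNA or the counting and symbol matching was not tested.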

Additional observations from a re-analysis of the deposited data

How the results depend on the processing

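Members called in siSLC25A1 (3), in siACLY against siSLC25A1 (5) and outside the siControl range in siACO1 (9) stayed within 1.5 times under each alternative run, at 3 to 4, 4 to 5 and 8 to 9. In a fit of only the groups compared, members called in siACLY went from 4 to 7 and the 42 neighbouring genes tested (other enzymes and carriers) from 11 to 18 called. Leaving out 1 library at a time gave 2 to 4 members in siACLY, and 7 to 10 neighbouring genes in siSLC25A1 against 11, the lowest without siControl replicate 1; the cause was not tested. With a replicate block, 4, 4 and 5 members were called in siSLC25A1, siACLY and siACLY against siSLC25A1, PHGDH in siSLC25A1 being the added one (-0.17, adjusted p = 0.01685, edgeR). Uncalled values near 0 changed sign. MYC in siACLY became 0.0071 with at least 10 counts in every library and 0.0386 with library totals, and ran from -0.0304 to 0.0177 without single libraries; in siACO1 it became 0.0114 with library totals; in siSLC25A1 it became -0.008 without the filter and ran from -0.0193 to 0.0276 without single libraries. SHMT1 in siACLY against siSLC25A1 became 0.001 with 10 counts and 0.0269 with library totals, and ran from -0.0667 to 0.0371 without single libraries. Leaving out single libraries gave, in siSLC25A1, -0.0038 to 0.0831 for NFE2L2, -0.0883 to 0.0017 for PSAT1 and -0.0401 to 0.0044 for PSPH, and -0.0175 to 0.1258 for PHGDH in siACLY against siSLC25A1; the sign changed without siSLC25A1 replicate 1, and for PSPH without siControl replicate 1. Library totals moved the median of all genes to 0.05 in siACLY and in siACO1. Of 1127 single-gene values under an alternative, 1047 kept direction and call where these applied. Of the rest, 39 lost a call, 10 gained one, 18 changed sign and 13 moved beyond their spread. The total includes the siACO1 values of the 9 enzymes and their levels per length. Those had no test, so no call to keep or lose, and all the values that moved are among them. Among the 9 enzymes, depth limits SHMT1 and ALDH1L2 most.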
